A study of Homo sapiens with 27 samples.

Results

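The genes described here are 10 of the 36536 genes in the deposited count table: the vascular endothelial growth factors VEGFA, VEGFB and VEGFC, the placental growth factor PGF, the platelet-derived growth factor chains PDGFA, PDGFB and PDGFC, the neuropilin receptors NRP1 and NRP2, and the angiopoietin-like gene ANGPTL4. They were chosen by gene symbol, and each of the 10 had 1 row in the table. The study asked how epidermal growth factor (EGF), oncostatin M (OSM) and transforming growth factor beta (TGFB) act alone and together on MCF10A, an established, non-tumorigenic line of human mammary epithelial cells. The cells were plated on collagen-1 in medium with serum and 20 ng/ml EGF, moved after 6 h to medium without growth factors, and starved for 18 h. One group was collected then (T0, 0 h). The other 8 groups were collected 24 h later, after the PBS vehicle, EGF, OSM, TGFB, EGF+OSM, EGF+TGFB, OSM+TGFB or EGF+OSM+TGFB, each ligand at 10 ng/ml. All 9 groups share the serum-containing plating step and the starvation, all cells come from 1 line, and each group has 3 libraries of polyadenylated RNA. The labels do not say whether the 3 came from separate cultures, so the p-values measure the spread between these libraries, which may be technical.

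VEGF ligands are secreted dimers that drive the growth, survival and permeability of blood and lymph vessels through receptor tyrosine kinases on endothelial cells. PDGF chains pair into dimers that act on PDGF receptors of fibroblasts, pericytes and smooth muscle. Neuropilins are coreceptors that bind VEGF forms and class 3 semaphorins, and epithelial cells carry them too. ANGPTL4 is a secreted inhibitor of lipoprotein lipase whose transcription is known to respond to PPAR factors, hypoxia and TGFB signalling. Epithelial cells are usually a source of these ligands for neighbouring endothelium and stroma.

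Library totals ran from 30.1 M to 52.9 M estimated counts (median 39.5 M). Every level below is in CPM, the count divided by the library size in M after scaling by the TMM factor. All 10 epithelial markers checked had a mean over all libraries of at least 1 CPM, and their summed level was between 11453 CPM (a PBS library) and 46766 CPM (a library with all 3 ligands). Of 10 endothelial markers, KDR alone reached that mean, and the summed level of the list ran from 32.1 to 36.6 CPM in PBS and from 1.37 to 1.95 CPM in EGF+TGFB. Of 10 fibroblast and mesenchymal markers, 4 reached it (COL1A1, DCN, POSTN and ACTA2), with sums from 21.5 CPM (EGF+OSM) to 258 CPM (OSM+TGFB). Of 6 blood and immune markers, CD68 alone reached it. None of the listed markers was at 0 in all 27 libraries, and the part of these markers in the results was not tested. In bulk RNA, fewer cells that express a gene and less RNA per cell cannot be told apart.

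Promoter sequence was taken from RefSeq (GRCh38.p14), whose table held 6 of the 10 genes. Shown are the 250 bases just before the RefSeq start of the 4 genes with a single start in the table. The 4 windows are read 5′ to 3′ on the gene's strand. The genes are ANGPTL4, VEGFC and NRP2, which were higher with all 3 ligands than in PBS, and VEGFB, which was lower. The ANGPTL4 and NRP2 windows lie inside the GENCODE v44 spans given for these genes below, where GENCODE places the start further upstream. Capitals mark matches, on either strand, to the hypoxia-response core ACGTG, the SMAD box CAGAC, the TATA box TATAAA, the AP-1 site TGANTCA or the STAT site TTCNNNGAA.
ANGPTL4, chr19:8363905-8364154, plus strand: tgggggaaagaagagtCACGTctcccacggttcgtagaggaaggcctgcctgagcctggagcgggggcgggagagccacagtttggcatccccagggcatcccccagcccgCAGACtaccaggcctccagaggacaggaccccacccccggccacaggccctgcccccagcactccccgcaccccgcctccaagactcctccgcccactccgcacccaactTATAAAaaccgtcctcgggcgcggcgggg
VEGFC, chr4:176792923-176793172, minus strand: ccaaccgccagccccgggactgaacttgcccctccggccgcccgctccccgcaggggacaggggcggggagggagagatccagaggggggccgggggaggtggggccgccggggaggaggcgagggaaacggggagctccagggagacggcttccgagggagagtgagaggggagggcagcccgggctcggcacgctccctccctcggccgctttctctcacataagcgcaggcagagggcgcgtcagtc
NRP2, chr2:205682251-205682500, plus strand: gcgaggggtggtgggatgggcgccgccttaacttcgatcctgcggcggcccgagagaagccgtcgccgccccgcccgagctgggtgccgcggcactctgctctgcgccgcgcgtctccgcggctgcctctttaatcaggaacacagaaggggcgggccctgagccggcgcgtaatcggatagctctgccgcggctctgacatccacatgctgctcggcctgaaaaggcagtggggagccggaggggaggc
VEGFB, chr11:64234334-64234583, plus strand: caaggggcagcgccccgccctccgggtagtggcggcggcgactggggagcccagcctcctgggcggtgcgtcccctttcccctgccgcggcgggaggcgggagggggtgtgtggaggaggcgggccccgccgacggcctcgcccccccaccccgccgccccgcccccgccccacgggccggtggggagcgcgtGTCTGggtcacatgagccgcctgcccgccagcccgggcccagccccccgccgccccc
In the ANGPTL4 window, a hypoxia-response core (on the opposite strand) lay 234 to 230 bases before the RefSeq start. A SMAD box lay 139 to 135 bases and a TATA box 29 to 24 bases before that start. The VEGFB window held a SMAD box, also on the opposite strand, 57 to 53 bases before the start, and the VEGFC and NRP2 windows held none of these letters. None of these matches overlapped another. Of all 35116 promoter windows of this length in the table, 18.5% held the hypoxia-response core, 38% the SMAD box, 10.7% the TATA box, 6.57% the AP-1 site and 6.57% the STAT site. A match is a description of the letters and not a measured binding site.

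Against PBS, most of these genes were higher with every treatment, and the combinations with TGFB gave the highest levels of VEGFA, VEGFC, PDGFA, PDGFB, PDGFC and ANGPTL4. All 10 passed the filter on low counts and were tested (edgeR's quasi-likelihood test over 15575 genes, called at a Benjamini-Hochberg adjusted p under 0.05). With EGF, 8 of the 10 rose and 1 fell, where 73.5% of all genes tested were called in either direction and 34.9% were called higher. With OSM, 7 rose and 1 fell (63.4% of all genes called, 33.5% higher). With TGFB, 7 rose and none fell (35.6% called, 19.9% higher). The 3 genes not called with TGFB were VEGFB, PGF and NRP2. Calls were common among all genes in these cells, and the counts of members stand beside those percentages for that reason.

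In combination, EGF+OSM raised 7 members and lowered 1 (77.2% of all genes called, 37.6% higher), and EGF+TGFB raised 8 and lowered 1 (73.7% called, 36.2% higher). OSM+TGFB raised 9 and lowered 1 (66.0% called, 34.2% higher), as did EGF+OSM+TGFB (74.4% called, 37.7% higher). VEGFB was the gene lowered in each of these cases. The median log2 fold change over the 10 genes was 1.46 with EGF, 1.44 with OSM, 0.74 with TGFB and 2.84 with all 3, beside a median over all genes between -0.07 and 0.00 in these 4 comparisons. These 7 comparisons share the same 3 PBS libraries, so their agreement with each other is not independent.

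**Figure D1:**
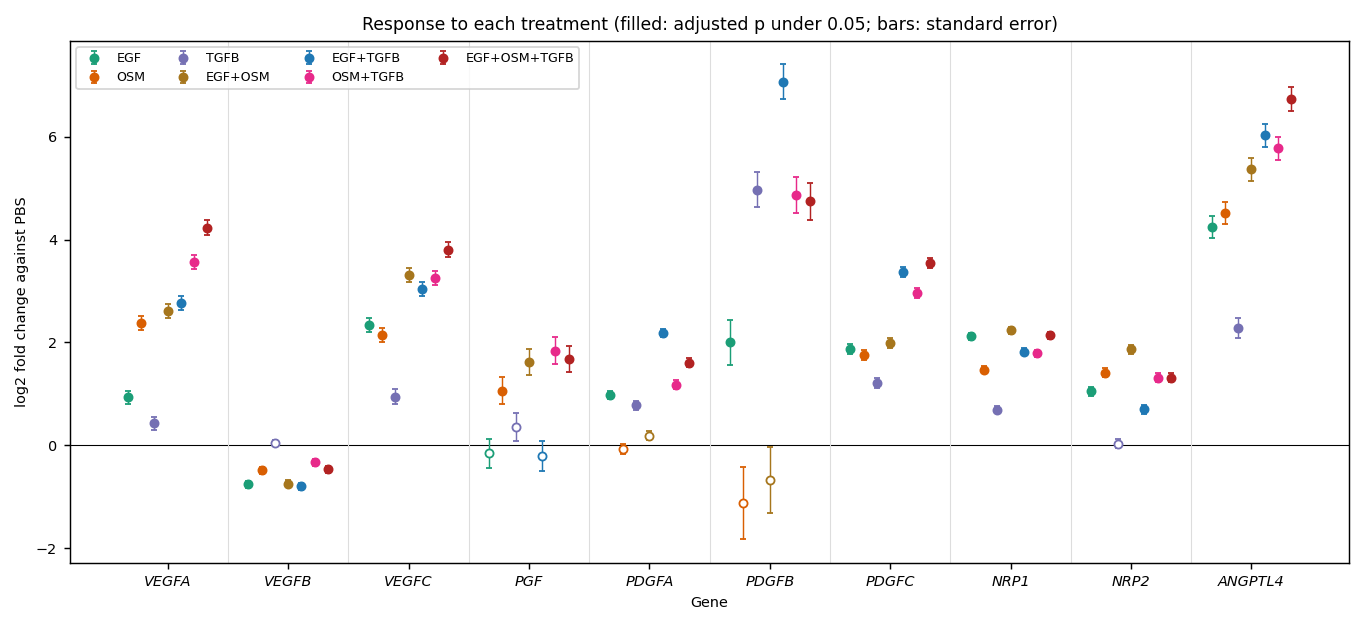
Log2 fold change against PBS (y axis) of each of the 10 genes (x axis) with each of the 7 treatments, with standard errors from edgeR; filled points have an adjusted p under 0.05. VEGFB lies at or below 0 apart from TGFB alone at 0.05, and the highest points are PDGFB with EGF+TGFB at 7.07 and ANGPTL4 with all 3 ligands at 6.73.

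VEGFA (ENSG00000112715, chromosome 6, 43770184 to 43786487, plus strand, GRCh38) encodes the main endothelial mitogen of the family. Its 3 PBS libraries read 24.8, 25.1 and 23.4 CPM, and its T0 libraries 25.6, 26.8 and 26.5 CPM. The single-ligand libraries read 57.2, 45.3 and 37.2 CPM with EGF, 145, 114 and 124 CPM with OSM, and 37.1, 32.0 and 29.4 CPM with TGFB. The combinations read 164, 152 and 133 CPM with EGF+OSM, 192, 155 and 155 CPM with EGF+TGFB, 321, 257 and 291 CPM with OSM+TGFB, and 481, 452 and 443 CPM with all 3. Every treated library was above every PBS library. The levels with OSM+TGFB and with all 3 ligands were each apart from every other group, while EGF+OSM overlapped both EGF+TGFB and OSM alone.

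OSM was the strongest single ligand for VEGFA, at a log2 fold change of 2.38 ± 0.13 (SE; edgeR adjusted p 1.0e-12), beside 0.93 ± 0.13 with EGF (1.7e-06). The rise with TGFB alone was 0.43 ± 0.13 (0.016). Its adjusted p was 0.0583 without PBS replicate 3, 0.0992 without TGFB replicate 1 and 0.0543 with no filter on low counts, which left 6 members called with TGFB. Added to EGF, TGFB raised VEGFA by 1.84 ± 0.13 (adjusted p 1.1e-10), and added to OSM it raised it by 1.19 ± 0.12 (6.1e-08). On top of OSM, EGF had no called effect (0.23 ± 0.12, adjusted p 0.11), though a fit with the replicate number as a block called it (0.018). On top of TGFB, EGF raised VEGFA by 2.35 ± 0.13 (8.9e-13). With all 3 ligands VEGFA was 4.23 ± 0.14 above PBS (3.9e-17).

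VEGFC (ENSG00000150630, chromosome 4, 176683538 to 176792922, minus strand) encodes a ligand of lymphatic endothelium that needs proteolytic processing. It was at 3.08, 3.02 and 3.62 CPM in PBS and rose with each ligand, to 16.4, 15.2 and 17.5 CPM with EGF, 16.2, 10.6 and 16.3 CPM with OSM, and 6.21, 5.81 and 6.69 CPM with TGFB. With the pairs it lay between 24.8 and 34.4 CPM over the 9 libraries, and with all 3 ligands at 44.3, 46.0 and 45.6 CPM. The 9 libraries of the pairs were all above those of any single ligand and all below those of the triple. Log2 fold changes were 2.34 ± 0.14 with EGF (edgeR adjusted p 1.3e-13), 2.15 ± 0.14 with OSM (1.3e-12), 0.95 ± 0.15 with TGFB (1.5e-05) and 3.81 ± 0.14 with all 3 (3.7e-18). Each of the 9 additions of 1 ligand to 1 or 2 others raised VEGFC, by between 0.49 (TGFB added to EGF+OSM) and 2.30 (OSM added to TGFB).

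VEGFB (ENSG00000173511, chromosome 11, 64234584 to 64239264, plus strand), which signals through the receptor FLT1 and is linked to lipid handling and survival rather than vessel sprouting, moved the other way. It was at 30.8, 33.4 and 29.96 CPM in PBS and fell to 18.9, 18.9 and 18.0 CPM with EGF and to 21.6, 23.3 and 22.3 CPM with OSM. With TGFB it read 35.0, 31.0 and 31.2 CPM, which overlapped PBS. Against PBS it fell by 0.75 ± 0.07 with EGF (edgeR adjusted p 2.2e-10) and fell by 0.49 ± 0.07 with OSM (6.4e-07). TGFB gave 0.05 ± 0.07 (0.63). On top of EGF, OSM gave no further change (0.01 ± 0.07, 0.93), and on top of EGF+TGFB it raised VEGFB by 0.33 ± 0.07 (6.9e-04).

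PGF (ENSG00000119630, chromosome 14, 74941834 to 74955626, minus strand), a further FLT1 ligand, was a low-level gene that responded to OSM. It was at 0.750, 0.690 and 0.806 CPM in PBS and at 1.59, 1.22 and 1.89 CPM with OSM, 1.06 ± 0.26 higher on the log2 scale (edgeR adjusted p 0.0011). The groups with EGF or TGFB but no OSM ranged from 0.379 to 1.27 CPM per library, around the PBS values. OSM raised PGF on every background, by 1.78 ± 0.26 on EGF, 1.48 ± 0.25 on TGFB and 1.88 ± 0.27 on EGF+TGFB. On top of OSM, TGFB raised PGF by 0.78 ± 0.24 (adjusted p 0.0088) and EGF by 0.56 ± 0.24 (0.049). Without OSM replicate 2 both calls were lost (0.061 and 0.21). TGFB added to EGF+OSM and EGF added to OSM+TGFB had no called effect (0.06 ± 0.24 and -0.16 ± 0.24, 0.85 and 0.60). With 0.64 to 2.69 CPM as group means, its errors were wider than those of the other VEGF genes.

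**Figure D2:**
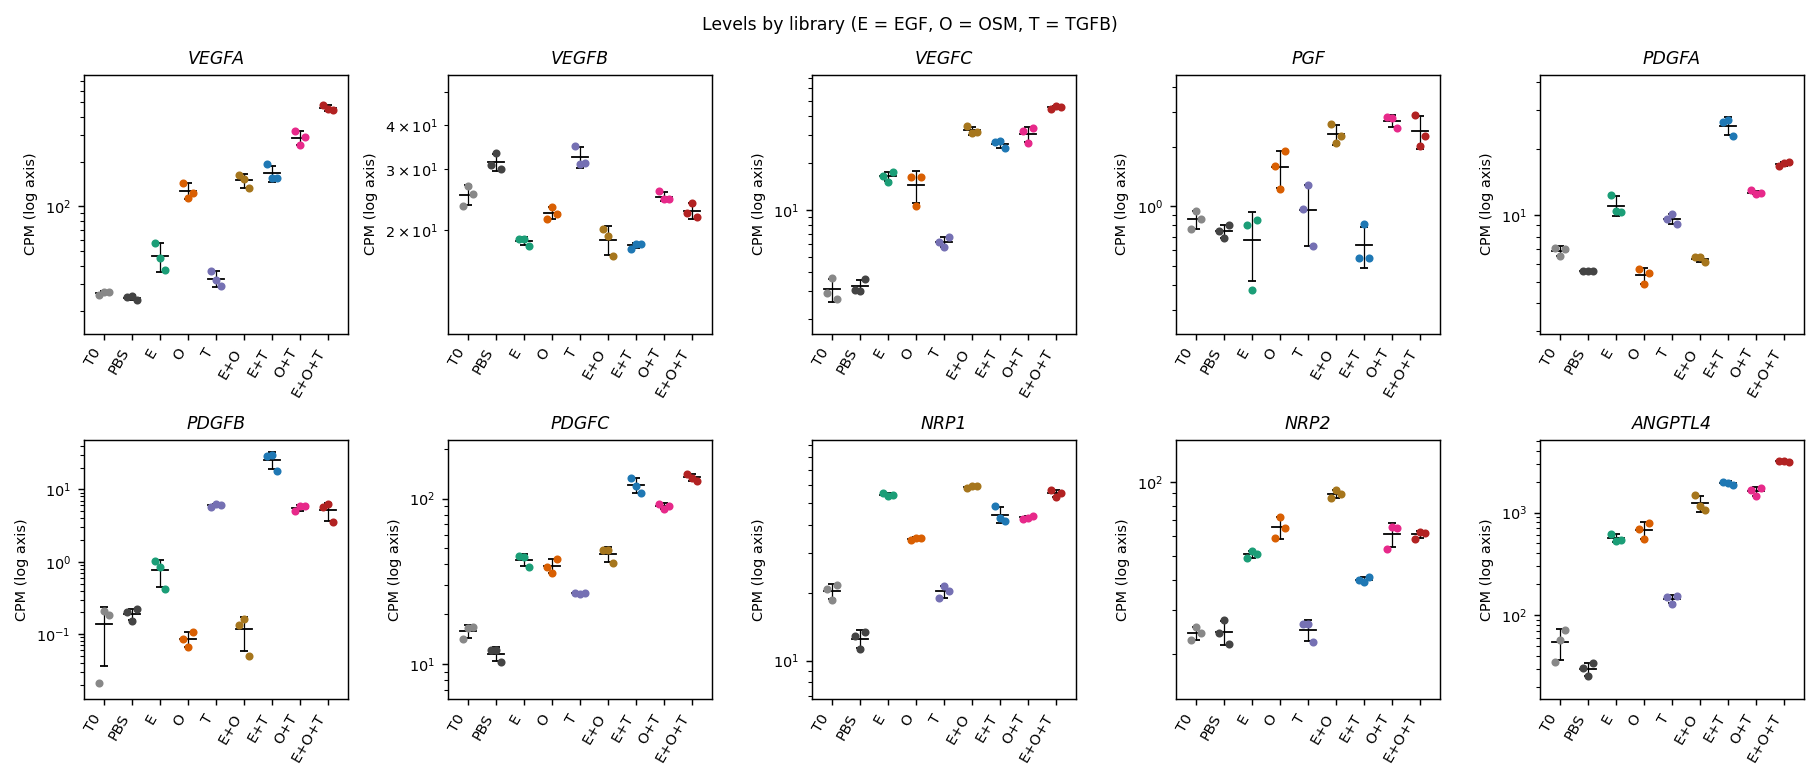
Level of each of the 10 genes in every library (points; CPM on a log axis) for the 9 groups on the x axis, with the mean and SD over 3 libraries. VEGFA, VEGFC and ANGPTL4 are highest with all 3 ligands, PDGFA and PDGFB with EGF+TGFB, and NRP1 and NRP2 with EGF+OSM.

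PDGFB (ENSG00000100311, chromosome 22, 39223359 to 39244982, minus strand) encodes the B chain, the ligand that recruits pericytes to vessels. It was close to the detection limit without TGFB. The libraries read 0.0213, 0.208 and 0.187 CPM at T0, 0.200, 0.151 and 0.220 CPM in PBS, and 0.0854, 0.0666 and 0.108 CPM with OSM. EGF gave 1.02, 0.838 and 0.415 CPM, EGF+OSM 0.135, 0.163 and 0.0506 CPM, and TGFB 5.77, 6.24 and 6.03 CPM. EGF+TGFB gave 28.8, 30.2 and 18.1 CPM, OSM+TGFB 5.00, 5.89 and 5.81 CPM, and all 3 ligands 5.63, 6.27 and 3.51 CPM. The EGF+TGFB libraries were above all others, and the other 3 groups with TGFB overlapped each other. The 3 OSM libraries together held 10 counts and the 3 EGF+OSM libraries 14, so folds against them have wide counting errors. The summed fibroblast and mesenchymal markers were at 136 to 143 CPM in PBS, 220 to 228 CPM with TGFB and 100.2 to 126 CPM with EGF+TGFB. Within that sum DCN was at 91.6 CPM in PBS, 96.2 CPM with TGFB and 11.01 CPM with EGF+TGFB, and COL1A1 at 38.7, 111 and 75.3 CPM. POSTN was at 0.423, 4.01 and 19.4 CPM in the same order of groups, and ACTA2 at 8.24, 12.2 and 9.02 CPM. The part of these markers in the PDGFB result was not tested.

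TGFB raised PDGFB by 4.97 ± 0.35 on the log2 scale (edgeR adjusted p 3.4e-11) and EGF by 2.005 ± 0.43 (2.3e-04). EGF added to TGFB raised it by a further 2.10 ± 0.22 (9.4e-09), to 7.07 ± 0.33 above PBS (2.0e-15). With OSM added to EGF, PDGFB fell by 2.68 ± 0.49 (1.2e-04), and with OSM added to EGF+TGFB it fell by 2.33 ± 0.23 (1.9e-08). Added to TGFB without EGF, OSM gave -0.11 ± 0.23 (0.70). The difference between the effects of OSM with and without EGF in the presence of TGFB was -2.22 ± 0.32 (adjusted p 7.0e-06). That contrast was chosen after the values were seen.

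PDGFA (ENSG00000197461, chromosome 7, 497258 to 520296, minus strand), the A chain made by many epithelia, had the same direction of response to OSM on top of EGF. It was at 5.60, 5.61 and 5.57 CPM in PBS, 12.4, 10.4 and 10.3 CPM with EGF and 9.60, 10.1 and 9.14 CPM with TGFB. OSM alone gave 5.72, 4.86 and 5.45 CPM and EGF+OSM 6.47, 6.47 and 6.12 CPM. EGF+TGFB gave 26.3, 27.1 and 22.8 CPM, apart from the 16.6, 17.2 and 17.4 CPM with all 3 ligands. With OSM, PDGFA fell by 0.80 ± 0.08 on EGF (edgeR adjusted p 2.6e-08) and fell by 0.58 ± 0.08 on EGF+TGFB (2.0e-06), and it rose by 0.40 ± 0.08 on TGFB (1.6e-04). The effect of OSM on EGF+TGFB less its effect on TGFB was -0.97 ± 0.11 (1.8e-07), a contrast also chosen after the values were seen.

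PDGFC (ENSG00000145431, chromosome 4, 156760454 to 156971799, minus strand) encodes a chain that is secreted as a latent form and cut by plasmin or tissue plasminogen activator. It rose with each ligand, from 12.2, 12.3 and 10.3 CPM in PBS to 45.3, 44.5 and 38.4 CPM with EGF, 38.8, 35.7 and 43.3 CPM with OSM, and 26.9, 26.6 and 26.8 CPM with TGFB. EGF+OSM, at 49.0, 48.6 and 40.8 CPM, overlapped EGF alone. EGF+TGFB gave 133, 120 and 108 CPM, and the triple 141, 134 and 128 CPM, which overlapped it. TGFB raised PDGFC on every background, by between 1.19 and 1.54, and OSM added to EGF or to EGF+TGFB had no called effect (0.11 ± 0.09 and 0.16 ± 0.08, edgeR adjusted p 0.35 and 0.17). Falls with OSM in the presence of EGF were thus called for PDGFA and PDGFB and not for PDGFC; whether the genes differ in this was not tested.

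NRP1 (ENSG00000099250, chromosome 10, 33177492 to 33336262, minus strand) was at 20.7, 18.6 and 21.7 CPM at T0 and 12.8, 11.3 and 13.4 CPM in PBS. EGF gave 55.3, 53.5 and 54.5 CPM, OSM 34.1, 35.0 and 35.0 CPM, and TGFB 18.9, 21.3 and 20.4 CPM. EGF+OSM gave 58.5, 59.5 and 59.3 CPM, EGF+TGFB 48.3, 42.8 and 41.6 CPM, OSM+TGFB 42.6, 42.9 and 43.9 CPM, and the triple 57.0, 52.96 and 55.4 CPM. All libraries with EGF lay between 41.6 and 59.5 CPM. TGFB raised NRP1 on its own by 0.70 ± 0.07 (edgeR adjusted p 7.0e-09) while with TGFB added to EGF it fell by 0.30 ± 0.06 (1.8e-04). The departure of the pair from the sum of the single responses was -0.99 ± 0.09 (2.5e-08).

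NRP2 (ENSG00000118257, chromosome 2, 205681990 to 205798133, plus strand), the neuropilin with a known preference for VEGFC and lymphatic vessels, was at 24.3, 27.4 and 21.8 CPM in PBS. It rose with EGF to 48.9, 52.2 and 50.8 CPM and with OSM to 59.0, 72.0 and 64.9 CPM, and was highest with EGF+OSM at 85.8, 92.7 and 89.1 CPM. TGFB alone gave 26.4, 26.4 and 22.2 CPM, a log2 fold change of 0.03 ± 0.09 (edgeR adjusted p 0.83). With TGFB on top of EGF, NRP2 fell by 0.35 ± 0.08 (9.6e-04), and on top of EGF+OSM it fell by 0.55 ± 0.08 (2.2e-06). Both neuropilins had their highest group mean with EGF+OSM, while the other 8 genes had theirs in a group with TGFB. Among those 8, VEGFB with TGFB overlapped PBS, and PGF with OSM+TGFB (2.47 to 2.81 CPM) overlapped EGF+OSM (2.07 to 2.60 CPM).

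ANGPTL4 (ENSG00000167772, chromosome 19, 8363289 to 8374370, plus strand) had the largest rise of the 10 genes with all 3 ligands. It was at 34.9, 57.4 and 71.1 CPM at T0 and 30.4, 25.3 and 33.6 CPM in PBS. EGF gave 619, 532 and 541 CPM, OSM 690, 552 and 796 CPM, and TGFB 149, 129 and 155 CPM. EGF+OSM gave 1478, 1152 and 1048 CPM, EGF+TGFB 2007, 1957 and 1838 CPM, OSM+TGFB 1678, 1444 and 1748 CPM, and the triple 3161, 3204 and 3110 CPM. EGF and OSM alone overlapped, and the triple was apart from every other group. Log2 fold changes were 4.24 ± 0.21 with EGF (edgeR adjusted p 2.2e-13), 4.51 ± 0.21 with OSM (1.7e-13), 2.28 ± 0.20 with TGFB (9.8e-09) and 6.73 ± 0.23 with the triple (3.4e-16).

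Each of the 9 additions of a ligand to others raised ANGPTL4. The sizes ran from 0.71 ± 0.18 for OSM on EGF+TGFB (edgeR adjusted p 0.0053) to 3.75 ± 0.20 for EGF on TGFB (1.2e-12). The effect of EGF or OSM was smaller where the other was present: EGF added 0.85 ± 0.18 to OSM, and OSM added 1.12 ± 0.18 to EGF. That difference, the departure of EGF+OSM from the sum of its single responses, was -3.39 ± 0.27 (3.0e-09).

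Between T0 and PBS, 24 h further without growth factors changed 5 of the 10 genes (35.1% of all genes tested were called). VEGFB rose by 0.31 ± 0.07 (edgeR adjusted p 5.7e-04). PDGFA fell by 0.30 ± 0.09 (0.0069), PDGFC fell by 0.45 ± 0.10 (8.4e-04), NRP1 fell by 0.70 ± 0.07 (1.4e-08) and ANGPTL4 fell by 0.87 ± 0.19 (0.0013). VEGFA, VEGFC, PGF, PDGFB and NRP2 gave values between -0.20 and 0.43 that did not pass. The PBS levels used above as the baseline are therefore not the T0 levels for those 5 genes.

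When 1 ligand was added to others, OSM added to EGF raised 5 and lowered 2 members (34.9% of all genes called), and TGFB added to EGF raised 6 and lowered 2 (54.6%). EGF added to OSM raised 7 and lowered 1 (61.7%), and TGFB added to OSM raised 8 and lowered none (51.6%). The count for EGF added to OSM was 5 in place of 8 without OSM replicate 2. EGF added to TGFB and OSM added to TGFB each raised 8 and lowered 1 (69.4% and 56.6%). Added to the remaining pair, TGFB raised 7 and lowered 1 (61.1%), OSM raised 7 and lowered 2 (26.4%) and EGF raised 6 and lowered none (52.2%). The 2 genes lowered by OSM on EGF+TGFB were PDGFA and PDGFB, the same 2 as on EGF alone.

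**Figure D3:**
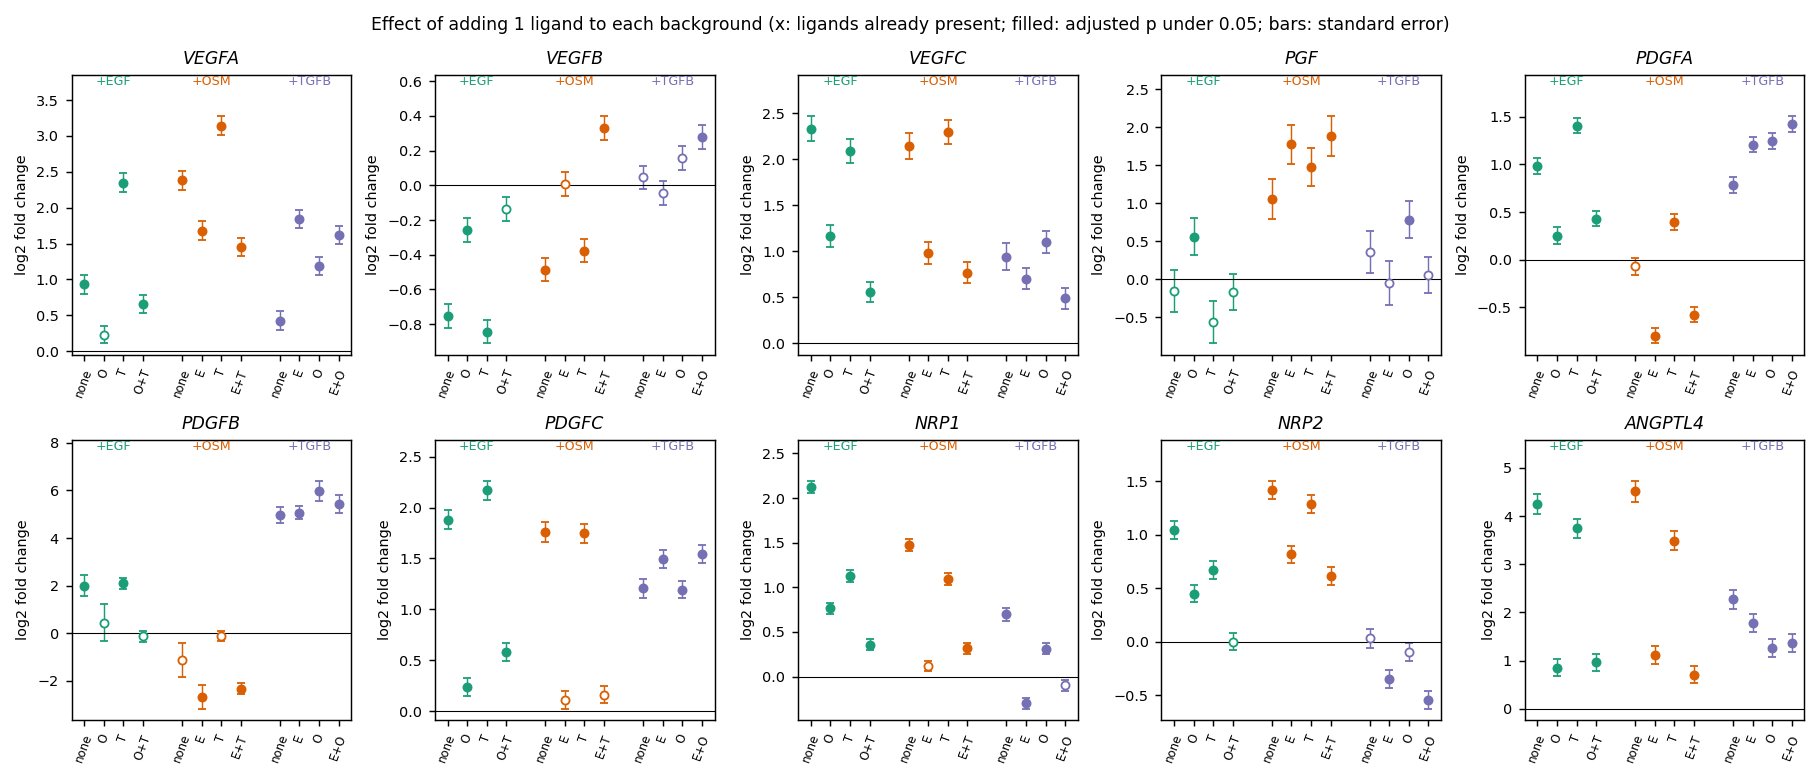
Log2 fold change (y axis, own scale in each panel) from adding EGF, OSM or TGFB to the ligands named on the x axis (E = EGF, O = OSM, T = TGFB, none = PBS), with standard errors; filled points have an adjusted p under 0.05. Adding OSM lowers PDGFA and PDGFB where EGF is present, and adding TGFB lowers NRP1 on EGF (-0.30) and NRP2 on EGF+OSM (-0.55).

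Departures were measured on the log2 scale, as the response to a combination less the summed responses to the ligands given singly; a departure of 0 means that the folds multiply. For EGF+OSM, 7 of the 10 genes were below that sum and 1 above it (38.7% of all genes called). Those below were VEGFA (-0.70 ± 0.18), VEGFC (-1.16 ± 0.18), PDGFA (-0.73 ± 0.12), PDGFC (-1.65 ± 0.13), NRP1 (-1.35 ± 0.09), NRP2 (-0.60 ± 0.12) and ANGPTL4 (-3.39 ± 0.27). VEGFB, whose single responses were both falls, was above it by 0.50 ± 0.10. With TGFB present, EGF and OSM departed in the same 8 genes and directions, and PDGFB was called below as well (9 of 10 called, where 35.1% of all genes were). That contrast was chosen after the values were seen. Without TGFB, PDGFB departed by -1.56 ± 0.96, which did not pass (edgeR adjusted p 0.21). The difference between these 2 PDGFB departures was -0.65 ± 0.997 and did not pass either (0.82).

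EGF+TGFB departed in 4 genes (29.8% of all genes called). VEGFA was 1.42 ± 0.19 above the sum (edgeR adjusted p 7.8e-06) and PDGFA 0.42 ± 0.11 above it (0.0064), while NRP1 and NRP2 were below it (-0.99 ± 0.09 and -0.38 ± 0.12). The NRP2 call (adjusted p 0.020) was lost with no filter on low counts (0.0501) and without PBS replicate 3 (0.0708), TGFB replicate 1 (0.0565) or 2 (0.0567), or EGF+TGFB replicate 3 (0.0505). OSM+TGFB departed in 4 genes (23.3% of all genes called): VEGFA (0.76 ± 0.18) and PDGFA (0.47 ± 0.12) above the sum, NRP1 (-0.38 ± 0.09) and ANGPTL4 (-1.02 ± 0.26) below it. The triple departed in 6 genes (48.0%), VEGFB above and VEGFC, PDGFC, NRP1, NRP2 and ANGPTL4 below. VEGFA was thus above the sum in both pairs with TGFB and at 0.49 ± 0.26 in the triple, which did not pass (0.13). In the fit with a replicate block, the VEGFA departure of the triple did pass (0.0214).

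The 3-way interaction, the part of the triple that single ligands and pairs do not account for, was called for VEGFA and NRP1 (3.9% of all genes called). It was -0.99 ± 0.25 for VEGFA (edgeR adjusted p 0.029) and 0.58 ± 0.13 for NRP1 (0.0080). The VEGFA call was lost in 9 of the fits that each left out 1 library, and NRP1 kept its call in all of them. With OSM present, the EGF and TGFB departure of VEGFA was 0.43 ± 0.17 and did not pass (0.10), but did with a replicate block (0.0105). In that background 3 of the 10 genes departed, VEGFC, NRP1 and NRP2, all below the sum (16.4% of all genes called). OSM and TGFB with EGF present departed in VEGFB alone (9.55% called), at 0.32 ± 0.10, a call lost in 8 of the fits that each left out 1 library.

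Levels can be set side by side between genes only per length of transcript, here CPM per kilobase of the canonical transcript in GENCODE v44. In PBS, VEGFB (17.4) and ANGPTL4 (15.9) led, followed by VEGFA (6.77), NRP2 (3.68), PDGFC (2.54), NRP1 (2.22), PDGFA (2.04), VEGFC (1.43), PGF (0.43) and PDGFB (0.051). With all 3 ligands, ANGPTL4 was at 1687 and VEGFA at 127 CPM per kilobase, and PDGFC (29.4) and VEGFC (20.1) were above VEGFB (12.6). NRP1 and NRP2 were then at 9.78 and 9.20, PDGFA at 6.22, PDGFB at 1.38 and PGF at 1.37. Per kilobase of all annotated exons together, VEGFA was at 1.69 in PBS and 31.8 in the triple, since its union of exons is 14431 bases against 3609 for the canonical transcript. The place of VEGFA in the PBS order therefore depends on the length used.

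The receptors of these ligands were measured in the same cells. KDR, the main VEGFA receptor of endothelium, was at 30.2 ± 1.37 CPM in PBS (SD, n = 3) and at 0.535 ± 0.23 CPM with EGF+TGFB, a log2 fold change of -5.78 ± 0.16 (edgeR adjusted p 3.5e-20). Of the 6 receptor genes listed, 4 passed the filter, and with EGF+TGFB 1 rose and 3 fell (median -1.63, all genes -0.04, 73.7% of all genes called). PDGFRL, a PDGF receptor-like gene, went from 0.0413 ± 0.038 CPM in PBS to 1.84 ± 0.31 CPM with OSM (5.43 ± 0.54). PDGFRB, a receptor of the B chain, went from 0.547 ± 0.066 to 0.107 ± 0.014 CPM with all 3 ligands (-2.31 ± 0.38). FLT1 and PDGFRA did not pass the filter. Of the ligands outside the 10, PDGFD was at 4.51 ± 0.063 CPM in PBS and 1.18 ± 0.12 CPM with EGF+TGFB (-1.93 ± 0.23), and VEGFD had 31 counts over the 3 PBS libraries and 1 count with all 3 ligands, a ratio of 24.7 (95% counting interval 4.12 to 1008).

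Plexins transmit semaphorin signals, and only some of them do so as partners of neuropilins. With OSM+TGFB 8 of the 9 plexin genes rose and 1 fell (median 0.65, all genes 0.00, 66.0% of all genes called), and with EGF 2 rose and 4 fell (median -0.62, all genes -0.07, 73.5% called). PLXNA2 rose from 101 ± 5.72 CPM in PBS to 423 ± 13.9 CPM with EGF+TGFB, with a fall to 92.2 ± 5.49 CPM with OSM (-0.14, edgeR adjusted p 0.045), and PLXNA1 from 140 ± 5.37 to 417 ± 18.9 CPM with all 3 ligands. PLXNA4 was at 0.0477 CPM in PBS and 0.295 CPM with OSM+TGFB. Of 7 class 3 semaphorins, the neuropilin ligands that compete with VEGF, 4 were tested, and with EGF+OSM 1 rose and 3 fell (median -1.47, all genes -0.05, 77.2% of all genes called). SEMA3C fell from 312 ± 14.02 CPM in PBS to 33.4 ± 3.77 CPM with EGF+OSM (-3.22 ± 0.09), where NRP1 and NRP2 had their highest means, and rose to 583 ± 50.2 CPM with TGFB (0.90, edgeR adjusted p 1.7e-09). SEMA3A rose from 2.86 ± 0.19 to 12.8 ± 1.35 CPM with EGF and fell to 1.58 ± 0.14 CPM with OSM+TGFB (-0.85, 3.3e-04), and SEMA3B fell from 3.09 ± 1.01 to 1.02 ± 0.39 CPM with EGF+OSM.

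All 10 genes of the list of proteases that process the ligands, and their cofactors, were tested. With EGF 8 rose and 2 fell, and with all 3 ligands 7 rose and 2 fell (medians 0.98 and 1.06, all genes -0.07 and 0.00, 73.5% and 74.4% of all genes called). CCBE1, the cofactor that VEGFC needs for its cleavage, rose from 1.28 ± 0.29 CPM in PBS to 49.9 ± 5.81 CPM with all 3 ligands (5.27 ± 0.19, edgeR adjusted p 2.6e-17). Its mean was 15.3 CPM with EGF, 3.85 CPM with OSM and 1.66 CPM with TGFB. PLAU, the urokinase activator of plasmin, rose from 76.0 ± 5.43 to 1063 ± 70.9 CPM with all 3 ligands (3.81 ± 0.14), and MMP9, a matrix protease known to free bound VEGF, from 6.21 ± 1.96 to 104 ± 12.5 CPM with EGF+TGFB (4.08 ± 0.24). MMP9 fell to 3.56 ± 0.15 CPM with OSM (log2 fold change -0.79, adjusted p 0.018) and to 1.59 ± 0.65 CPM with EGF+OSM (-1.95, 1.2e-05).

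**Figure D4:**
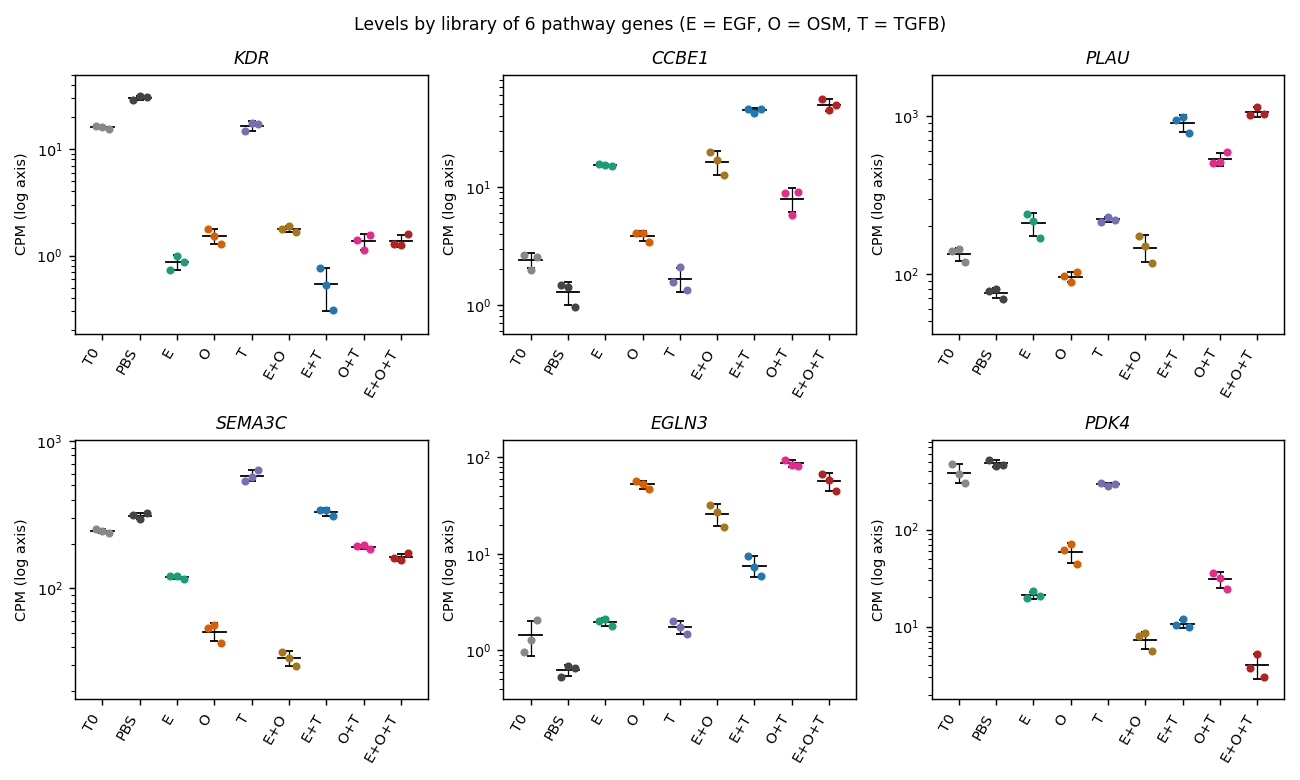
Level in every library (points; CPM on a log axis) of 6 genes of the pathway lists in the 9 groups, with the mean and SD over 3 libraries. KDR and PDK4 are lower in all 7 treated groups than in PBS, CCBE1 and PLAU are highest with all 3 ligands, SEMA3C is lowest with EGF+OSM, and EGLN3 is highest with OSM+TGFB.

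Of 12 genes for angiopoietins, their receptors and other angiopoietin-like proteins, 3 passed the filter, and with all 3 ligands 1 rose and 1 fell (median -0.42, all genes 0.00, 74.4% of all genes called). ANGPT1, the vessel-stabilising ligand of the receptor TEK, fell from 16.4 ± 2.98 CPM in PBS to 0.0686 ± 0.0054 CPM with all 3 ligands (-7.83 ± 0.36, edgeR adjusted p 3.6e-16). TEK itself had 2 counts over the PBS libraries and 61 with all 3 ligands, a ratio of 38.2 (95% counting interval 10.1 to 323). ANGPTL6 was at 0.334 CPM in PBS and 0.143 CPM with EGF (adjusted p 0.036). The remaining 9 listed genes did not pass the filter.

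All 14 other listed regulators of endothelial growth were tested, and with EGF+TGFB 9 rose and 5 fell (median 1.97, all genes -0.04, 73.7% of all genes called). THBS1, an inhibitor of angiogenesis that also activates latent TGFB, rose from 25.0 ± 3.498 CPM in PBS to 2328 ± 31.9 CPM with EGF+TGFB (6.54 ± 0.28), and CCN2, a matricellular protein, from 1.94 ± 0.36 to 146 ± 15.3 CPM (6.24 ± 0.14). APLN, a peptide ligand of endothelial tip cells, had 0 counts over the PBS libraries and 40 with EGF+OSM, at least 14.2-fold higher with a floor of 3 counts over the PBS group. With such low genes set at that bound, the median with all 3 ligands is 0.84 in place of 1.44. With OSM+TGFB it is 0.67 in place of 0.98.

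VEGFA and ANGPTL4 are known targets of hypoxia-inducible factors. Of 16 other hypoxia-response genes, 14 rose and 1 fell with OSM (median 1.28, all genes 0.00, 63.4% of all genes called), 7 rose and 6 fell with EGF (0.13, all genes -0.07, 73.5% called) and 6 rose and 3 fell with TGFB (0.12, all genes -0.01, 35.6% called). With OSM+TGFB 15 rose and none fell (1.69, 66.0% called), and with all 3 ligands 13 rose and none fell (2.05, 74.4% called). EGLN3, a hypoxia-induced prolyl hydroxylase, rose from 0.625 ± 0.088 CPM in PBS to 86.6 ± 7.20 CPM with OSM+TGFB (7.10 ± 0.27, edgeR adjusted p 8.6e-16), and VLDLR, a lipoprotein receptor, from 1.44 ± 0.32 to 20.0 ± 3.63 CPM with all 3 ligands. CA9, a carbonic anhydrase used as a hypoxia marker, had 2 counts over the PBS libraries and 1197 with all 3 ligands, a ratio of 750 (95% counting interval 207 to 6203). The CA9 libraries read 15.0, 9.58 and 9.72 CPM with all 3 ligands and 12.3, 9.52 and 9.58 CPM with OSM alone. They read 0.401, 0.120 and 0.171 CPM with EGF alone. At T0 the CA9 libraries held 16, 17 and 17 counts, more than in PBS. No oxygen measurement is part of these data.

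ANGPTL4 is also a textbook PPAR target. Of 11 other genes of the PPAR pathway, all tested, 1 rose and 6 fell with all 3 ligands (median -1.30, all genes 0.00, 74.4% of all genes called), and with TGFB 1 rose and 2 fell (0.03, all genes -0.01, 35.6% called). PDK4, a mitochondrial kinase that restrains glucose oxidation, fell from 481 ± 37.6 CPM in PBS to 4.02 ± 1.14 CPM with all 3 ligands (-6.92 ± 0.24, edgeR adjusted p 2.8e-16). FABP4, a fatty-acid binding protein, had 264 counts over the PBS libraries and 2 with EGF+OSM, a ratio of 124 (95% counting interval 34.0 to 1028).

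The members differed in which groups they ranked highest, and the likeness of their patterns was described by Pearson's r over the 9 group means of log2(CPM + 0.5). These points share the libraries and their scaling, so r is given with no p. VEGFC and ANGPTL4 were the most alike pair described here (r = 0.984), PDGFA and PDGFB had r = 0.912, NRP1 and NRP2 r = 0.866, and VEGFB and NRP1 r = -0.841. Of 12412 other genes with a mean of at least 1 CPM, those most like VEGFA were PLIN3 (0.993) and OLAH (0.989). For VEGFC they were MESD (0.997) and YWHAG (0.994), for VEGFB ZFP37 (0.983) and ZNF514 (0.979), and for PGF TCAF2 (0.953) and SP100 (0.9504). For PDGFA they were CREB3 (0.986) and MYORG (0.984), for PDGFB CGB8 (0.978) and TGFB2 (0.977), and for PDGFC CALR (0.997) and AP1M1 (0.997). CGB8 shares reads with near-identical copies of its family, so its values are uncertain. NRP1 was most like AADAT (0.994) and QRICH1 (0.993), NRP2 most like RPGR (0.996) and TNFRSF6B (0.991), and ANGPTL4 most like KIAA1549L (0.995) and SMTN (0.995).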

How the data were processed

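RNA of 27 MCF10A libraries (9 groups of 3) was sequenced from stranded polyadenylated-RNA libraries, per the labels' protocols. The authors deposited 1 gene table of estimated counts, given as whole numbers, so rounding changed no value. The submitters' processing notes name Trim Galore 0.4.3, cutadapt 1.10, FastQC 0.11.5, kallisto 0.46.2, R 3.5.0 and the builds GRCh38.p5 and hg38; which step made the gene table is not given in the sources used here. Groups were taken from the labels. Rows that share a symbol were summed (40487 rows to 36536 genes). The 7165 rows without a symbol, 0.324% of counts, were kept under their Ensembl identifiers. Group means over all 27 libraries were fitted with edgeR 4.0.16 in R 4.3.3 (TMM, filterByExpr, robust quasi-likelihood test, 18 residual degrees of freedom) to 15575 genes, and p-values were adjusted by Benjamini-Hochberg within each contrast. The standard error of a log2 fold change is its size over the square root of the F statistic. The biological coefficient of variation was 7.83%. The fit was tested on simulated data. Alternatives were other scaling, no filter, the rows as deposited, a replicate block, DESeq2 1.42.0 and each library left out. The 10 genes and the gene lists were chosen with earlier results of these data known. From each pathway list, up to 3 called genes with the largest absolute change against PBS are named, and for each of the 10 genes the 2 most correlated genes. One gene that this rule names is not reported here. Intervals for ratios of counts, and the floor of 3 counts, cover counting error only.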

Additional observations from a re-analysis of the deposited data

Results flagged for a closer look

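NRP1 responded to TGFB in opposite directions with and without EGF. Against PBS (11.3 to 13.4 CPM), TGFB raised NRP1 by 0.70 on the log2 scale, to between 18.9 and 21.3 CPM in its 3 libraries. Added to EGF (53.5 to 55.3 CPM), TGFB gave -0.30, with 41.6 to 48.3 CPM in the 3 libraries of the pair. Neither pair of groups overlapped. The difference between the 2 effects was -0.99, with an adjusted p of 2.5e-08 from edgeR's quasi-likelihood test of the interaction. With OSM present that difference was -0.41 ± 0.09 (SE, edgeR adjusted p 0.0022), a contrast chosen after the values were seen. The effect of TGFB was then 0.31 on OSM and -0.10 on EGF+OSM, and the latter did not pass (0.17).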

How the results depend on the processing

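Over the 250 results (10 genes in 25 contrasts), 1500 values under 6 other settings gave 1486 with the same direction and side of the threshold, 7 that lost a call and 7 that gained one. With 1 library left out, 2085 of 2130 stayed, 34 lost a call and 11 gained one. No called change reversed in either. The number of members called for EGF added to OSM was 8, and 5 to 8 with 1 library left out (5 without OSM replicate 2). For the 3-way interaction it was 2, with 1 when no filter on low counts was used (VEGFA, adjusted p 0.0591) and 1 to 2 with 1 library left out. For OSM and TGFB with EGF present it was 1, with 0 when no filter was used (VEGFB, adjusted p 0.112) and 0 to 1 with 1 library left out. With no filter more genes enter the adjustment, and the scaling and the spread are estimated anew. The cause of these changes was not tested. A replicate block gave 5 in place of 3 for EGF and TGFB with OSM present (16.4% of all genes called without it), adding VEGFA (0.0105) and PDGFC (0.0297). It also brought VEGFA for EGF added to OSM to 0.0180 and for the departure of the triple to 0.0214, and VEGFB for TGFB added to OSM to 0.0407. The labels do not say whether a replicate number marks a shared plate or day, and the main fit has no replicate term. In deviations from the group means, 27 of 27 libraries correlated best with libraries of their own number. The median correlation was 0.133 for the same number (lowest -0.048, 73 of 108 pairs over 0.1) and -0.062 for different numbers. Deviations within a group sum to 0, so positive values for the same number bring negative ones for different numbers. The negative median is therefore no separate observation. Same-numbered libraries thus shared some variation that the main fit leaves out, and its source was not tested. On raw library totals 42 of 90 group levels moved by over 1 SD, by at most 0.19 on the log2 scale. Of 126 pathway-list counts, 1 moved by over 1.5 times (PPAR genes with TGFB, from 1 higher and 2 lower to 3 and 3 with the block). The rise of PGF with EGF added to OSM (adjusted p 0.0489) was close to the threshold. Low counts limit PDGFB without TGFB and PGF.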

Other observations

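On the CPM scale, a combination can also be set beside PBS plus the sum of its single ligands' rises. This comparison was chosen after the values were seen and carries no test; errors are SE of the difference over 3 libraries a group. With EGF+OSM, VEGFA was at 150 CPM beside a sum of 149 CPM (difference 0.067 ± 14.1), ANGPTL4 at 1226 beside 1213 CPM (12.8 ± 150.0) and NRP2 at 89.2 beside 91.5 CPM (-2.26 ± 4.66). All 3 genes lay below the product of their folds in the report. Other genes called below that product lay above the CPM sum by more than 2 SE. VEGFC with EGF+OSM was only just past that bound, at 2.07 SE (32.3 beside 27.5 CPM). The others were ANGPTL4 with OSM+TGFB (2.05 times the sum), and VEGFC, PDGFC and ANGPTL4 with all 3 ligands (1.49, 1.57 and 2.38 times). The side on which these combinations fall thus depends on the scale. Of the 7 genes other than VEGFA, ANGPTL4 and NRP2 with EGF+OSM genes, 3 were above the sum and 4 below it by more than 2 SE, with PDGFB at 0.116 beside 0.655 CPM and PDGFA at 6.35 beside 10.8 CPM.

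With EGF+TGFB, 6 genes were above the sum by more than 2 SE. PDGFB was at 3.91 times the sum, VEGFA at 3.04 times, ANGPTL4 at 2.85 times, PDGFC at 2.08 times, PDGFA at 1.69 times and VEGFC at 1.37 times. NRP1 and NRP2 were below it, at 0.712 and 0.779 times. With OSM+TGFB, 6 genes were above the sum and none below, led by VEGFA at 2.14 times and ANGPTL4 at 2.05 times. With all 3 ligands, VEGFA was at 459 CPM beside a sum of 158 CPM and ANGPTL4 at 3159 beside 1328 CPM, while NRP1 and NRP2 were at 0.654 and 0.665 times their sums.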
